A study of Mus musculus with 18 samples.

Results

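A set of 9 genes of iron storage, heme breakdown and iron transport was followed in mouse kidney proximal tubules, from the day of isolation through 14 days of primary culture. They are Fth1 and Ftl1 (ferritin), Ncoa4 (the ferritin turnover receptor), Hmox1 (heme breakdown), Tfrc, Steap3 and Slc11a2 (iron uptake), Slc40a1 (iron export) and Ireb2 (iron sensing). They were picked by name as a functional group, and are 9 of the 55421 genes in the deposited tables. All 9 were in the tables and passed the filter on low counts.

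PolyA RNA was sequenced from 18 libraries, with 3 replicates named A, B and C at each of 6 time points, days 0, 1, 2, 4, 7 and 14. Every group was wild type and untreated and came from kidneys of female C57BL/6J mice aged 6 weeks. Tubules freed with collagenase and enriched on Percoll were grown on plastic without passaging, and day 0 is the freshly isolated material. The labels call A, B and C biological replicates but do not tell how many animals or separate cultures stand behind them, and p-values measure the spread between these libraries.

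The proximal tubule takes filtered iron, mostly bound to transferrin, back from the urine by endocytosis, and can store it or pass it to the blood. Ferritin is a hollow shell of heavy and light chains in which the heavy chain oxidises iron and the light chain helps it to settle as mineral. A pair of iron regulatory proteins, Aco1 and Ireb2, bind a short hairpin named the iron-responsive element when iron is scarce. In a 5′ untranslated region a bound hairpin blocks translation, and in the 3′ region of Tfrc bound hairpins protect the transcript from decay.

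These hairpins couple a transcript to the iron supply, and they are shown for the members whose annotated transcripts hold one. The search looked on the transcript strand for a C and 5 further bases, the 6-base loop CAGTGN with A, C or T at its end, and 5 bases that pair with those before the loop at 4 or more places, G with T included. Of the members, 5 held a match: Fth1, Ftl1 and Slc40a1 in the 5′ region, Slc11a2 and Tfrc in the 3′ region. Each line below gives 30 bases from the GENCODE vM21 transcript (GRCm38), 5′ to 3′, in DNA letters, with the 6 loop bases in capitals.
Fth1, 5′ region, chr19:9982732-9982761, plus strand: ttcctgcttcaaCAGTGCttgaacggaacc
Ftl1, 5′ region, chr7:45459778-45459807, minus strand: gtcttgcttcaaCAGTGTttgaacggaaca
Slc40a1, 5′ region, chr1:45925464-45925493, minus strand: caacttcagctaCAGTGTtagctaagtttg
Slc11a2, 3′ region, chr15:100395152-100395181, minus strand: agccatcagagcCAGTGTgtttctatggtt
Tfrc, 3′ region, chr16:32631219-32631248, plus strand: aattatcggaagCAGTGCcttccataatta
Tfrc, 3′ region, chr16:32631598-32631627, plus strand: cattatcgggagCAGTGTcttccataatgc
Tfrc, 3′ region, chr16:32631663-32631692, plus strand: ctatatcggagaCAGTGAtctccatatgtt
Tfrc, 3′ region, chr16:32631710-32631739, plus strand: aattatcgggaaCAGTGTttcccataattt
All but the Slc11a2 match paired at 5 of 5 places, and Slc11a2 at 4. Of all genes with an annotated 5′ region, 0.619% (127 of 20520) held such a match, and of those with a 3′ region 3.12% (651 of 20867), so the pattern alone is not rare in 3′ regions. The Slc11a2 match lies in 1 annotated transcript of that gene, and counts per gene cannot separate its transcripts with and without the hairpin. No protein or ribosome data are part of these measurements, so the values below are transcript levels.

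Transcript levels are counts-per-million (CPM) on library sizes scaled by TMM (trimmed mean of M values), and libraries are listed in the order A, B, C. Totals of estimated counts ran from 23799559 to 37579097 per library. The test was the quasi-likelihood F test of edgeR over 18754 genes, with a Benjamini-Hochberg adjusted p under 0.05 as the call, and log2 fold changes carry the standard error (SE). The summed CPM of 8 proximal tubule markers, such as the transporter Slc34a1, ran from 18162 to 21051 on day 0, from 3701 to 7404 on day 1 and from 16.2 to 27.0 on day 14, so the defining markers of the labelled cell type were close to absent late in culture. Markers of other kidney cells were present on day 0 and moved too. The summed CPM of 5 thick limb and distal tubule markers was 4915 to 6279 on day 0 and 10.1 to 22.8 on day 14, that of 6 collecting duct markers 892 to 1343 and 13.4 to 18.5, and that of 7 endothelial markers 158 to 197 and 3.85 to 5.11. All of these were called lower on day 14, as were 32.1% of all genes. For 7 fibroblast and pericyte markers the sum was 40.7 to 52.2 on day 0 and 84.9 to 116 on day 14. Of these, 3 were called higher and 4 lower, beside 37.4% and 32.1% of all genes. The part of these cells in the members' differences from day 0 was not tested. In bulk RNA, fewer cells of a type and less RNA per cell cannot be told apart. Day 7 replicate C stood apart from replicates A and B of its day, since the summed CPM of 7 markers of dividing cells was 1079 in it, beside 331 and 300.04 in them.

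Every member differed among the 6 days (9 of 9 called), as did 89.8% of all genes tested, so that count says little by itself. Against day 0, 4 members were called higher and 4 lower on day 1, where the shares among all genes were 33.1% and 37.1%. On day 2, 3 were called higher and 4 lower (38.9% and 35.3% of all genes), and on day 4, 3 and 5 (38.1% and 36.8%). On day 7, 2 were higher and 6 lower (37.6% and 32.1%), and on day 14, again 2 and 6 (37.4% and 32.1%). The members' median log2 fold change on days 1, 2, 4, 7 and 14 was 0.26, -0.09, -0.52, -0.47 and -0.59, beside -0.01, 0.14, 0.08, 0.16 and 0.16 over all genes. Without day 0 replicate B or day 1 replicate C, 2 members were called higher on day 1, and without day 7 replicate C the day 7 counts were 2 higher and 7 lower.

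Between neighbouring days the members moved most often downward from day 4 to day 7, when 5 were called lower and 0 higher (15.9% and 22% of all genes). From day 1 to day 2, 2 were called higher and 3 lower (17% and 17.5%), and from day 2 to day 4, 1 and 2 (19.4% and 22.1%), or 1 and 3 with the replicate letter as a block. From day 7 to day 14, 1 was called higher (Slc40a1) and 1 lower (Ftl1), beside 5.07% and 7.45% of all genes, and neither call was stable: they held in 11 and 10 of 28 alternatives. Without day 7 replicate C, 1 was higher and 5 lower from day 4 to day 7, and 2 and 1 from day 7 to day 14. For the count of 0 on day 7 against day 4, no member with a higher mean had an unadjusted p under 0.05, and the DESeq2 Wald test also called 0 higher.

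Per length, in TPM, the order of the members' levels changed. On day 0 the mean was 10728 ± 1434 for Ftl1 and 10326 ± 44.3 for Fth1, whose libraries overlapped. Far below came Ncoa4 (112 ± 24.7), Slc40a1 (78.4 ± 5.50) and Slc11a2 (36.4 ± 2.09), then Hmox1 (27.0 ± 3.10), Tfrc (20.9 ± 3.35), Ireb2 (18.4 ± 2.76) and Steap3 (1.76 ± 0.318; SD, n = 3 each). On day 1 Hmox1, at 3129 ± 629 TPM, came next after the ferritin chains. On day 14 it still did (274 ± 9.58 TPM), ahead of Ncoa4 (103 ± 2.77) and Slc40a1 (92.7 ± 5.13), and Steap3 stayed last (14.6 ± 1.03). Tfrc and Ireb2 overlapped on day 0, and Tfrc stood between Slc40a1 and Slc11a2 on day 14 (44.3 ± 3.51).

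These counts of calls depend on how libraries are put on 1 scale. With library sizes alone, the median of all genes moved up by 0.30 to 0.56 (log2) against day 0, and with transcripts-per-million (TPM), which also divide by length, by 0.35 to 0.77. On library sizes alone the members called higher and lower against day 0 became 5 and 2, 5 and 1, 4 and 2, 2 and 4, and 4 and 4 on days 1, 2, 4, 7 and 14. Among all called genes, the share called higher on day 14 was 53.8% with TMM, 71.9% with library sizes alone and 78.9% on log2(TPM + 1). The splits on days 1, 2, 4 and 7 were 47.2%, 52.4%, 50.9% and 53.9% with TMM and 58.3%, 67.3%, 64.9% and 70.4% with library sizes alone. Changes below are relative to TMM, and values on library sizes alone or log2(TPM + 1) are given where these end or turn a call.

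**Figure D1:**
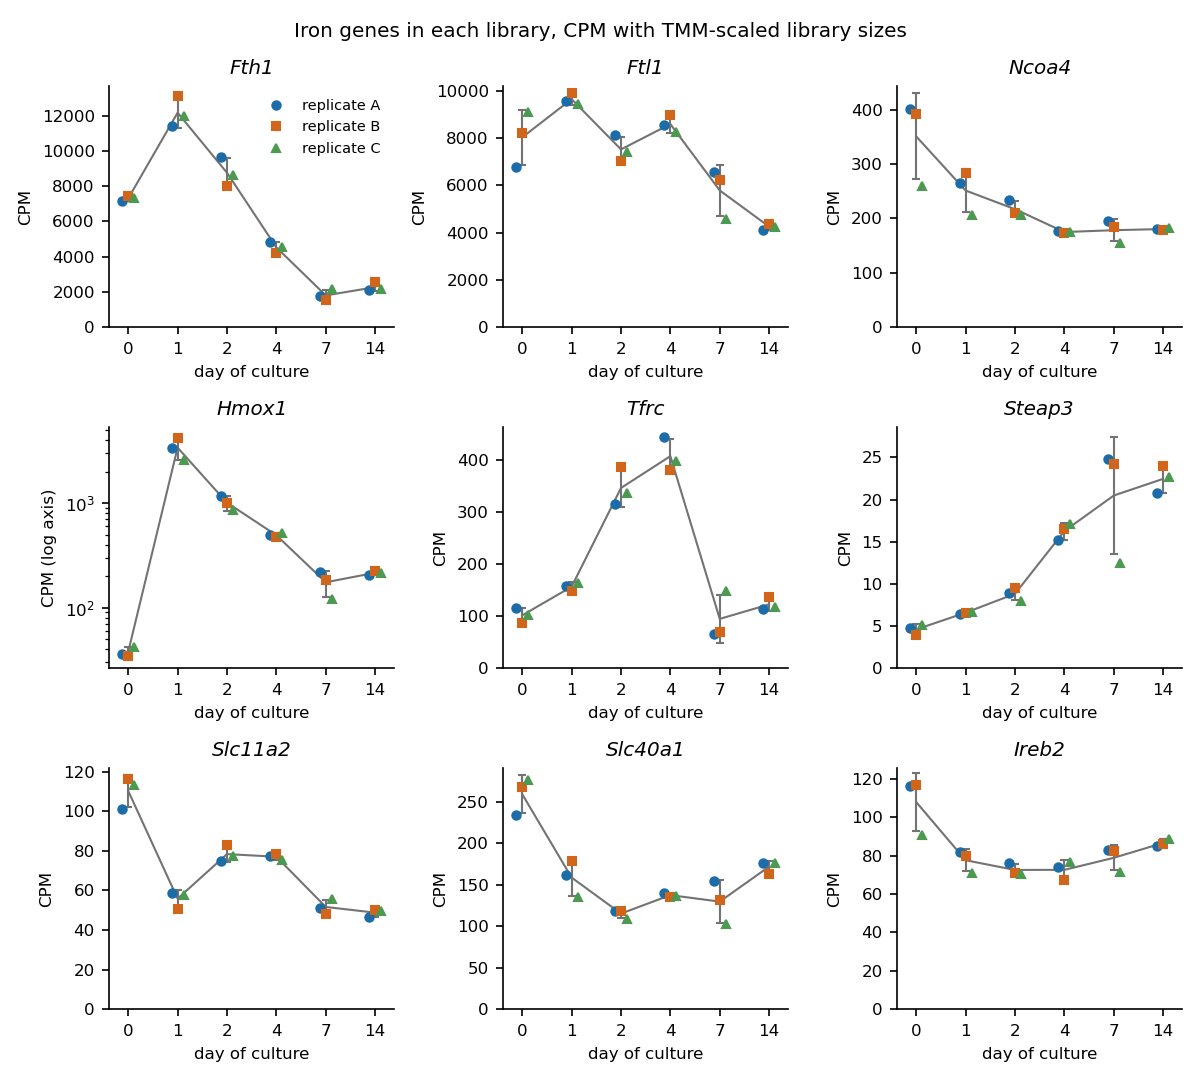
CPM of each of the 9 genes (y axis, linear except for Hmox1, which is on a log axis) by day of culture (x axis, days evenly spaced), with points for replicates A, B and C and a grey line and bars for the mean and SD of 3 libraries. Hmox1 stands at 34.3 to 42.3 CPM on day 0 and 2599 to 4216 on day 1, Tfrc peaks on days 2 and 4, Steap3 climbs from 3.89 to 5.13 CPM on day 0 to 20.7 to 24.0 on day 14, and Slc11a2, Slc40a1, Ncoa4 and Ireb2 are highest on day 0.

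Fth1, the ferritin heavy chain (chromosome 19, 9980598 to 9985098), rose on the first day and then fell far below its starting level. Fth1 was at 7137, 7439 and 7311 CPM on day 0, 11398, 13097 and 11989 on day 1, and 9657, 8009 and 8606 on day 2. It was at 4842, 4209 and 4517 CPM on day 4, 1736, 1510.3 and 2145 on day 7, and 2107, 2537 and 2152 on day 14. The day 1 libraries lay above all others, the day 4, 7 and 14 libraries below all of day 0, and days 7 and 14 overlapped. Against day 0 the log2 fold change was 0.74 ± 0.13 on day 1 (adjusted p = 0.00012), which is 1.67-fold higher. It was -2.02 ± 0.14 on day 7 (adjusted p = 1.8e-09), 4.06-fold lower, and -1.69 ± 0.14 on day 14 (adjusted p = 1.4e-08). The rise on day 1 and both falls were called in all 28 alternatives of scaling, test, filter and libraries left out. It fell from day 2 to day 4 (-0.95 ± 0.13) and from day 4 to day 7 (-1.33 ± 0.13), again in all 28. Day 4 against day 0 was -0.69 ± 0.13 (adjusted p = 0.00019). That call was lost on library sizes alone (-0.20, adjusted p = 0.19) and on log2(TPM + 1) (-0.05, adjusted p = 0.73). The day 2 value, 0.26 ± 0.13, did not pass (adjusted p = 0.081). It did on library sizes alone (0.78, adjusted p = 6.8e-05) and on log2(TPM + 1) (0.84, adjusted p = 1.7e-05).

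Ftl1, the light chain (chromosome 7, 45457944 to 45459884), moved less and later with TMM. Ftl1 was at 6781, 8203 and 9115 CPM on day 0, 9591, 9918 and 9447 on day 1, and 8115, 7045 and 7408 on day 2. It was at 8557, 8983 and 8246 CPM on day 4, 6576, 6224 and 4555 on day 7, and 4126, 4382 and 4249 on day 14. Day 0 overlapped with days 2 and 4, the day 1 libraries lay just above it, and those of days 7 and 14 all lay below it. None of days 1, 2 and 4 passed the test against day 0. On day 14 Ftl1 fell by 0.92 ± 0.14 (log2, adjusted p = 2.1e-05), and on log2(TPM + 1) that difference was -0.07 (adjusted p = 0.61). The day 7 fall, -0.47 ± 0.14 (adjusted p = 0.0062), turned to 0.02 on library sizes alone (adjusted p = 0.89). On that scale Ftl1 was called higher on days 1, 2 and 4 (0.57, 0.42 and 0.59). Exons of Ftl1 overlap 2 other annotated genes, the microRNA gene Gm22133 on the same strand and Gm10252 on the other, and whether the counting used strand is not given in the sources used here.

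The balance of the 2 chains can be read within a library, where scaling between libraries does not enter. Per length, the Fth1 to Ftl1 ratio of TPM was 1.11, 0.959 and 0.850 on day 0, 1.26, 1.40 and 1.34 on day 1, and 1.26, 1.20 and 1.23 on day 2. It was 0.599, 0.496 and 0.579 on day 4, 0.280, 0.257 and 0.499 on day 7, and 0.541, 0.613 and 0.537 on day 14. Heavy chain transcripts thus outnumbered light chain transcripts in every library of days 1 and 2, and light outnumbered heavy in every library from day 4 on, with day 0 on both sides of 1. All other entries whose names begin with Fth or Ftl were also added to the chain of that name. The day 0 ratio was then 0.993, 0.848 and 0.757, below 1 in each library. The libraries of days 1 and 2 stayed above 1 and those from day 4 on below it. The log2 ratio was 0.46 higher on day 1 and 0.35 higher on day 2 than on day 0, and its difference from day 0 was -0.80, -1.55 and -0.78 on days 4, 7 and 14. None of these groups overlapped with day 0, and the two-sided exact permutation p was 0.1 each time, the smallest that 3 against 3 can give. Days 7 and 4 overlapped through day 7 replicate C, without which the day 7 difference from day 0 was -1.85.

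Together the chains held 2.11 ± 0.143% of all TPM on day 0. The share was 3.90 ± 0.0821%, 3.36 ± 0.285% and 2.80 ± 0.103% on days 1, 2 and 4, and 1.70 ± 0.148% and 1.59 ± 0.0651% on days 7 and 14 (SD, n = 3 for each day). Days 1, 2 and 4 lay above day 0 and days 7 and 14 below it with no overlap (two-sided exact permutation p = 0.1 for each, the smallest possible). The day 4 rise is one of the share of a library's own total, in TPM and also in counts. With TMM, day 4 against day 0 was -0.69 ± 0.13 (log2) for Fth1, called lower, and 0.10 ± 0.14 for Ftl1, not called. Ferritin remained among the most abundant transcripts: by TPM, Fth1 ranked 6 to 8 on day 0, 1 or 2 on day 1 and 6 to 13 on day 7, while Ftl1 went from rank 6 to 9 on day 0 to rank 1 in every library of days 4 and 14. Light chain entries related by name (Ftl1-ps1, Ftl1-ps2 and Ftl2-ps) took 6.12% to 12.1% of the light chain counts, so Ftl1 itself may be uncertain by about that much. Their sequences were not compared with that of Ftl1. With all entries named Fth or Ftl added, the share was 2.24 ± 0.161%, 4.10 ± 0.0889% and 1.73 ± 0.0465% on days 0, 1 and 14 (SD, n = 3 for each day).

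**Figure D2:**
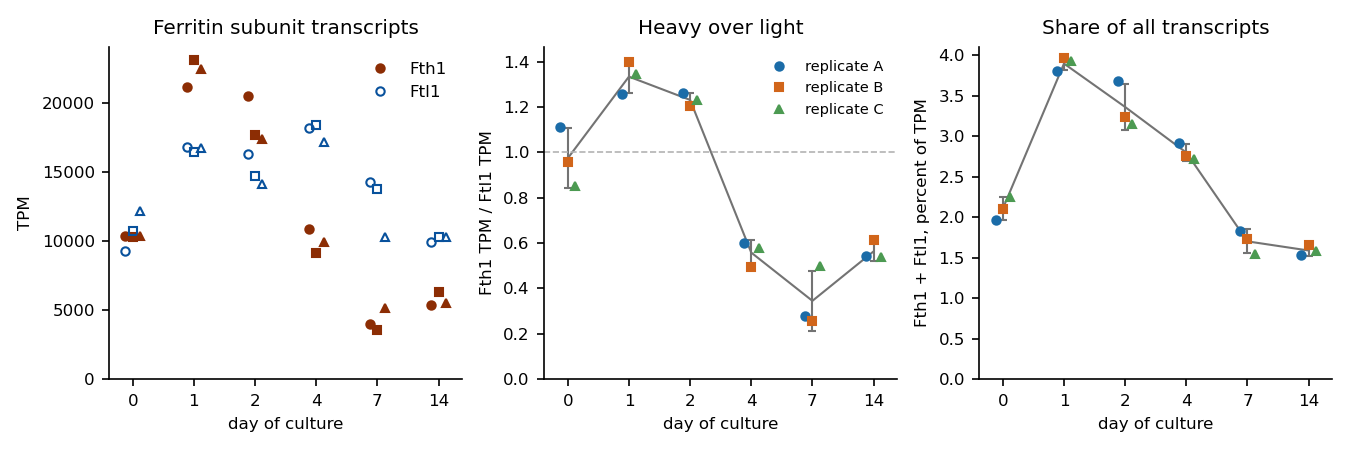
Left, TPM of Fth1 (filled) and Ftl1 (open) in each library by day of culture; middle, Fth1 TPM over Ftl1 TPM with a dashed line at 1; right, both chains together as percent of TPM. Circles, squares and triangles are replicates A, B and C, and grey lines and bars are mean and SD of 3 libraries. The ratio lies above 1 in all libraries of days 1 and 2 and below 1 from day 4 on, and the share peaks on day 1 at 3.80% to 3.96%.

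Ncoa4 (chromosome 14, 32159865 to 32179855) carries ferritin to the lysosome, where its iron is released. Ncoa4 was at 401, 391 and 259 CPM on day 0, 264, 283 and 206 on day 1, and 234, 210.4 and 206 on day 2. It was at 177, 172 and 175 CPM on day 4, 195, 184 and 155 on day 7, and 179.7, 179 and 182 on day 14. Day 0 was the most spread out, with replicate C below replicates A and B of day 1, and the later days lay close together. The log2 fold change against day 0 was -0.48 ± 0.14 on day 1 (adjusted p = 0.0072) and -1.0 ± 0.15 on day 4 (adjusted p = 1.1e-05), with days 7 (-0.98 ± 0.14) and 14 (-0.96 ± 0.14) close to it. On log2(TPM + 1) the day 14 value was -0.10 (adjusted p = 0.53) and the calls of days 1, 2 and 7 were lost as well, while day 4 was -0.34 (adjusted p = 0.032, and 0.054 without the filter on low TPM). Library sizes alone also ended the calls of days 1 and 2 (-0.18 each, adjusted p = 0.19 each). From day 2 to day 4 the difference was -0.31 ± 0.14 (adjusted p = 0.097). With the replicate letter as a block over all 18 libraries, this difference was called lower (-0.31, adjusted p = 0.048). Same-lettered libraries deviated together between these days, but not between other days in all 3 letters. In TPM, the mean of day 0 was 112 ± 24.7 and that of day 14 103 ± 2.77 (SD, n = 3).

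Hmox1 (chromosome 8, 75093621 to 75100589) encodes heme oxygenase, which opens heme and frees its iron, and its gene is switched on by NRF2 when the repressor Bach1 lets go. Hmox1 was at 36.2, 34.3 and 42.3 CPM on day 0, 3401, 4216 and 2599 on day 1, and 1180.1, 997 and 853 on day 2. It was at 492, 472 and 513 CPM on day 4, 219, 184 and 121 on day 7, and 206, 226 and 214 on day 14. Every culture library lay above every day 0 library, and levels came down step by step to day 7 without overlap between days 1, 2, 4 and 7. Day 7 and day 14 overlapped. Against day 0, Hmox1 was 90.6-fold higher on day 1 (log2 6.50 ± 0.24, adjusted p = 4.7e-12), and 26.9, 13.1, 4.64 and 5.72-fold higher on days 2, 4, 7 and 14 (day 14 adjusted p = 1.6e-08). It fell by 1.75 ± 0.20 from day 1 to day 2, by 1.04 ± 0.19 from day 2 to day 4 and by 1.5 ± 0.20 from day 4 to day 7 (log2, adjusted p = 9.6e-06, 0.00051 and 5.9e-05). All these calls held in each of the 28 alternatives. By TPM, Hmox1 moved from rank 3911 to 4654 on day 0 to rank 24 to 37 on day 1.

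Hmox1 and Slc40a1 are also genes of macrophages that recycle red cells, so those markers are given beside them. The summed CPM of 11 macrophage markers ran from 29.4 to 72.4 on day 0. It was 9.48 to 11.5, 8.05 to 15.5, 10.7 to 15.0, 23.5 to 55.7 and 27.0 to 30.9 on days 1, 2, 4, 7 and 14. The scavenger receptor gene Cd163 had 0 counts on days 4, 7 and 14 and Vsig4 on every day. Of the 7 markers tested, 6 were called lower on day 1 and 0 higher, beside 37.1% and 33.1% of all genes. The part of macrophages in the Hmox1 and Slc40a1 values was not tested. Summed CPM of 6 red cell genes, mostly globins, was 65.8 to 99.8 on day 0, 20.5 to 29.9 on day 1 and 0 in all libraries of day 4.

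Tfrc (chromosome 16, 32608920 to 32632794) encodes the transferrin receptor, the entry for transferrin-bound iron, and holds the 4 hairpins shown above in its 3′ region. Tfrc was at 116, 87.0 and 101 CPM on day 0, 157, 148 and 165 on day 1, and 316, 386 and 338 on day 2. It was at 444, 381 and 399 CPM on day 4, 66.4, 69.9 and 148 on day 7, and 113, 136 and 118 on day 14. The libraries of days 2 and 4 lay above all others and overlapped with each other, and day 7 overlapped with days 0, 1 and 14. Tfrc rose on day 1 (log2 0.63 ± 0.22, adjusted p = 0.02), day 2 (1.77 ± 0.23, adjusted p = 3.5e-06) and day 4 (2.01 ± 0.23, 4.02-fold, adjusted p = 8.3e-07). From day 4 to day 7 it fell 4.31-fold (log2 -2.11 ± 0.23, adjusted p = 1.7e-05). The calls of days 2 and 4 and the fall to day 7 held in all 28 alternatives, while the day 1 call was lost without day 0 replicate B (adjusted p = 0.082) and without day 1 replicate C (adjusted p = 0.052).

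Day 7 replicate C carried Tfrc at 148 CPM, well above the other libraries of its day. Against day 0, day 7 did not pass (-0.10 ± 0.22, adjusted p = 0.71), but without that library Tfrc was called lower on day 7 (-0.57, adjusted p = 0.00048), and on log2(TPM + 1) with it, higher (0.55, adjusted p = 0.037). Day 14 against day 0 was 0.27 ± 0.22 (adjusted p = 0.29) and 0.28 without it (adjusted p = 0.027), and on library sizes alone 0.83 (adjusted p = 0.006). The rise from day 7 to day 14 was called only without that library (0.84, adjusted p = 0.00023).

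Markers of dividing cells, such as Mki67 and Top2a, also rose on days 2 and 4. Their summed CPM ran from 57.0 to 69.6 on day 0, and 96.4 to 118, 543 to 996, 1676 to 1866 and 103 to 118 on days 1, 2, 4 and 14. On day 7, where Tfrc did not pass against day 0, the sum was 300.04 to 1079. All 7 markers were called higher on days 2, 4 and 7, beside 38.9%, 38.1% and 37.6% of all genes. Their part in the Tfrc result was not tested.

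**Figure D3:**
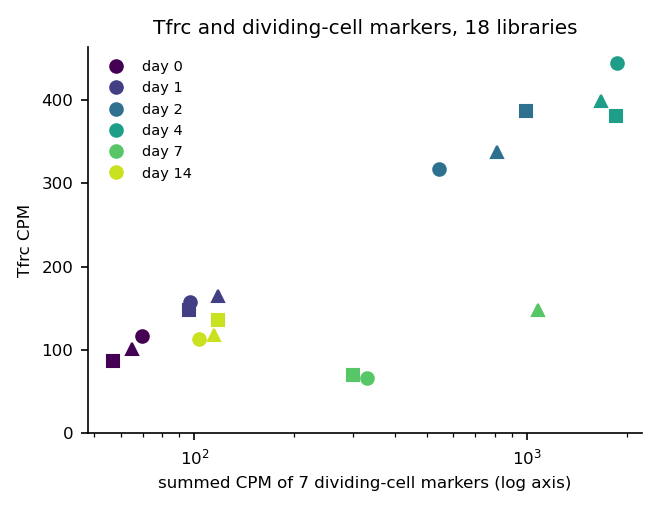
Tfrc CPM (y axis, linear) against the summed CPM of 7 dividing-cell markers (x axis, log) in each of the 18 libraries, coloured by day, with circles, squares and triangles for replicates A, B and C. The 6 libraries of days 2 and 4 sit at 316 CPM of Tfrc or more, and day 7 replicate C has 148 CPM at a marker sum of 1079, beside 386 CPM at 996 in day 2 replicate B.

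Steap3 (chromosome 1, 120190757 to 120272705) reduces the iron that transferrin lets go in the endosome. Steap3 was at 4.73, 3.89 and 5.13 CPM on day 0, 6.47, 6.54 and 6.71 on day 1, and 8.94, 9.48 and 8.01 on day 2. It was at 15.1, 16.5 and 17.1 CPM on day 4, 24.8, 24.2 and 12.4 on day 7, and 20.7, 24.0 and 22.6 on day 14. It was the least abundant member on each day by TPM, and its libraries rose without overlap over days 0, 1, 2 and 4, while day 7 overlapped with day 14, and with day 4 through replicate C alone. Against day 0 Steap3 was 1.93-fold higher on day 2 (log2 0.95 ± 0.20, adjusted p = 0.00059), 3.55-fold on day 4 (adjusted p = 6.5e-07) and 4.91-fold on day 14 (log2 2.3 ± 0.21, adjusted p = 5.9e-08). These calls held in all 28 alternatives. The day 1 rise, 0.52 ± 0.21 (adjusted p = 0.033), was lost with DESeq2's size factors (adjusted p = 0.06) and Wald test (adjusted p = 0.058). It was also lost without any 1 of day 0 replicates A and B and day 1 replicates A, B and C (adjusted p = 0.057, 0.13, 0.056, 0.055 and 0.066). From day 4 to day 7 the difference passed only without day 7 replicate C (0.59, adjusted p = 0.00049).

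Slc11a2 (chromosome 15, 100387898 to 100425072) is the divalent metal transporter DMT1, which moves reduced iron out of the endosome. Slc11a2 was at 101, 116 and 114 CPM on day 0, 58.9, 50.7 and 57.9 on day 1, and 74.8, 82.9 and 77.4 on day 2. It was at 77.2, 78.4 and 75.5 CPM on day 4, 51.0, 48.3 and 55.6 on day 7, and 46.5, 50.1 and 49.7 on day 14. It dropped on day 1, came partly back on days 2 and 4, and was low again on days 7 and 14, with overlap between days 2 and 4 and of day 7 with days 1 and 14. Its log2 fold change against day 0 was -0.98 ± 0.08 on day 1 (adjusted p = 1.9e-08), -1.10 ± 0.08 on day 7 (adjusted p = 4e-09) and -1.18 ± 0.08 on day 14 (adjusted p = 1.7e-09). The rise from day 1 to day 2 was 0.49 ± 0.08 (adjusted p = 0.00019) and the fall from day 4 to day 7 -0.58 ± 0.08 (adjusted p = 7.8e-05), both called in all 28 alternatives, as were days 1 and 7. The day 2 and day 4 falls, -0.49 ± 0.08 and -0.52 ± 0.08, were lost on library sizes alone (0.02 and -0.02) and on log2(TPM + 1), where they turned (0.18 and 0.07). The day 14 fall was -0.20 on log2(TPM + 1) and not called there (adjusted p = 0.081). Exons of Gm5475, on the other strand, overlap those of Slc11a2.

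Slc40a1 (chromosome 1, 45908068 to 45926523) encodes ferroportin, the cell's iron exporter. Slc40a1 was at 234, 268 and 277 CPM on day 0, 162, 179 and 136 on day 1, and 119, 118 and 109 on day 2. It was at 140.2, 136 and 137 CPM on day 4, 155, 132 and 102 on day 7, and 176, 164 and 176 on day 14. All culture libraries lay below all day 0 libraries, with the lowest mean on day 2, and most culture days overlapped. Slc40a1 fell by 0.71 ± 0.12 on day 1, by 1.17 ± 0.13 on day 2 and by 1.00 ± 0.13 on day 7 (log2, adjusted p = 0.0001, 4.3e-07 and 2.8e-06), each called in all 28 alternatives. The day 14 fall was -0.59 ± 0.12 (adjusted p = 0.00051) with TMM, -0.03 on library sizes alone (adjusted p = 0.8) and 0.24 on log2(TPM + 1) (adjusted p = 0.068). Its rise from day 7 to day 14, 0.41 ± 0.12 (adjusted p = 0.044), was 0.26 without day 7 replicate C (adjusted p = 0.11) and was called in 11 of the 28 alternatives. The fall to day 4 was -0.92 ± 0.13 (adjusted p = 6e-06) and -0.24 on log2(TPM + 1) (adjusted p = 0.07).

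Ireb2 (chromosome 9, 54863789 to 54912530) encodes iron regulatory protein 2, one of the pair that bind the hairpins. Ireb2 was at 116, 117 and 90.7 CPM on day 0, 82.0, 79.9 and 71.0 on day 1, and 76.4, 71.0 and 70.4 on day 2. It was at 74.0, 67.1 and 76.8 CPM on day 4, 82.7, 82.7 and 71.3 on day 7, and 84.9, 86.2 and 88.9 on day 14. Each day 0 library lay above each culture library, and the culture days spanned 67.1 to 88.9 CPM. Its falls against day 0, from -0.57 ± 0.10 on day 2 (adjusted p = 6.6e-05) to -0.32 ± 0.10 on day 14 (adjusted p = 0.0086), were called on all 5 days with TMM. Without day 14 replicate A, B or C the day 14 call was lost (adjusted p = 0.087, 0.079 and 0.057). Another scale turned it, since on day 14 Ireb2 was called higher on library sizes alone (0.25, adjusted p = 0.016) and on log2(TPM + 1) (0.50, adjusted p = 0.00041). On library sizes alone, none of days 1, 2, 4 and 7 was called, and on log2(TPM + 1) day 7 was called higher (0.27, adjusted p = 0.028). No step between neighbouring days was called for Ireb2 with TMM.

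**Figure D4:**
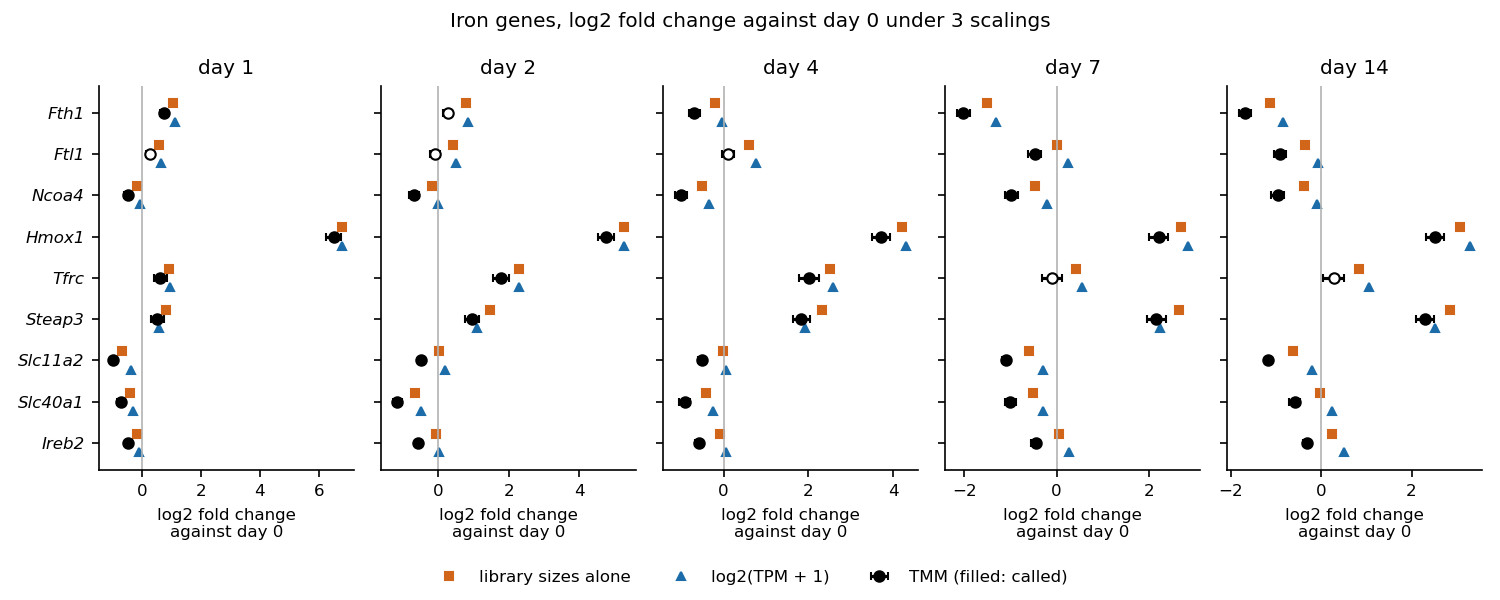
Log2 fold change against day 0 of each gene (x axis) on days 1, 2, 4, 7 and 14 (panels) with TMM scaling (circles with SE bars, filled where called), library sizes alone (squares) and log2(TPM + 1) (triangles). Hmox1, Tfrc on days 2 and 4 and Steap3 lie right of 0 on all 3 scales. Among those left of 0 with TMM and right of it on the others are Ireb2 on days 7 and 14, Slc11a2 on day 2 and Ftl1 on days 2 and 7.

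Across the 18 libraries, genes whose log2 CPM followed a member most closely were sought among 10125 genes with a mean of at least 10 CPM. The points share libraries and day structure, so Pearson's r is a description. For Fth1 they were Bccip, Rph3al and Cltb (r = 0.977, 0.975 and 0.969), for Ftl1 Cox10, Pdss1 and Pnpt1 (0.904, 0.897 and 0.895), and for Ncoa4 Trpm7, Cdc37l1 and Atp6v0a4 (0.958, 0.955 and 0.954). Those nearest to Hmox1 were Sdad1, Usp31 and Reps1 (0.985, 0.985 and 0.983), to Tfrc Psmb3, Hpf1 and Zw10 (0.952, 0.948 and 0.937), and to Steap3 Mid1ip1, Mbp and Peg3 (0.991, 0.989 and 0.988). For Slc11a2 they were Mrpl11, Coq7 and Myg1 (0.974, 0.965 and 0.959), for Slc40a1 Ivd, Clpb and Ly6g2 (0.957, 0.954 and 0.952), and for Ireb2 Pptc7, Pi4kb and Acox3 (0.938, 0.935 and 0.932). Among the members themselves, the closest pairs were Slc40a1 with Ireb2 (r = 0.85) and Fth1 with Ftl1 (0.77), and the most opposed was Fth1 with Steap3 (-0.84).

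Other genes of iron and heme biology were lower in culture more often than higher. Of 89 listed genes, 88 were matched by name and 84 tested. Called higher and lower were 20 and 51, 22 and 53, 21 and 47, 19 and 50, and 20 and 52 on days 1, 2, 4, 7 and 14. Over all genes the shares on these days were 33.1% to 38.9% higher and 32.1% to 37.1% lower. These shares also stand beside the TMM counts of each list below. On library sizes alone these became 29 and 40, 32 and 48, 32 and 44, 32 and 41, and 33 and 37, and on log2(TPM + 1) 34 and 34 on day 7 and 35 and 31 on day 14. Their median log2 fold change ran from -0.97 on day 2 to -0.55 on day 1.

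In the heme synthesis list, all 9 genes were called lower on days 1, 2 and 7, 7 on day 4 and 8 on day 14, with 0 higher. On library sizes alone 8, 8, 7, 6 and 5 of the 9 were lower on days 1, 2, 4, 7 and 14 and up to 1 higher, and on log2(TPM + 1) 7, 7, 4, 4 and 4 of 8 lower and up to 2 higher. Urod and Alad, enzymes of the porphyrin steps, stood out by the rule for named genes. Urod went from 101 ± 0.666 CPM on day 0 to 31.1 ± 1.71 on day 2 (log2 fold change -1.70 ± 0.08, adjusted p = 5e-11). Alad went from 175 ± 5.02 to 40.8 ± 1.21 CPM on day 14 (log2 fold change -2.11 ± 0.11, adjusted p = 1.1e-10). Alas2, the red cell form of the first enzyme, is in this list and among the red cell markers, which reached 0 counts on day 4.

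Of 13 genes of heme breakdown and transport, 7 to 9 were lower and 2 to 5 higher on each day, and on library sizes alone 5 and 5 on day 1. Abcg2, an exporter that carries porphyrins and urate, went from 932 ± 6.38 CPM to 87.6 ± 4.84 on day 14 (log2 fold change -3.41 ± 0.15, adjusted p = 1.1e-11). Flvcr2, a membrane transporter, went from 51.0 ± 8.40 to 1.09 ± 0.235 CPM on day 4 (log2 fold change -5.53 ± 0.31, adjusted p = 1.4e-10), while its paralog Flvcr1, known as a heme exporter, went up from 32.1 ± 1.32 to 84.9 ± 5.74 CPM on day 2 (log2 fold change 1.40 ± 0.15, adjusted p = 3e-07). Bach1, the heme-sensing repressor of Hmox1, was itself higher on day 1, with 26.0 ± 11.3 CPM beside 6.45 ± 0.502 on day 0 (log2 fold change 2.01 ± 0.24, adjusted p = 2e-06).

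Among 24 genes of mitochondrial iron handling and iron-sulfur cluster assembly, 16 to 18 were lower and 3 to 5 higher on each day, and on log2(TPM + 1) 11 to 14 lower and 6 to 9 higher. Iscu, the scaffold on which clusters are built, fell from 278 ± 6.53 to 49.1 ± 1.63 CPM on day 4 (log2 fold change -2.50 ± 0.12, adjusted p = 2.5e-11), and Nfs1, the sulfur donor, from 193 ± 2.76 to 52 ± 0.830 (log2 fold change -1.89 ± 0.09, adjusted p = 3.2e-11). Nubp1, of the cytosolic assembly machinery, rose from 41.4 ± 2.26 to 81.2 ± 4.55 CPM on day 4 (log2 fold change 0.97 ± 0.07, adjusted p = 4.9e-09).

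In the list of iron uptake and the transferrin cycle, 8 or 9 of 14 genes were lower and 3 or 4 higher on each day, and on log2(TPM + 1) 6 of 11 were higher on days 7 and 14 and 5 lower. Lrp2 and Cubn, the endocytic receptors for filtered protein, belong to this list and to the proximal tubule markers, all 8 of which were lower on every day. Lcn2, lipocalin 2, a secreted carrier of iron-binding siderophores and an injury marker, rose from 1.93 ± 1.5 CPM to 2191 ± 12.7 CPM on day 14 (log2 fold change 10.21 ± 0.44, adjusted p = 1.4e-11). Its receptor gene Slc22a17 fell from 55.6 ± 4.35 to 1.22 ± 0.247 CPM on day 4 (log2 fold change -5.50 ± 0.25, adjusted p = 2.2e-11), and Trf, transferrin itself, from 122 ± 9.95 to 0.819 ± 0.444 on day 14 (log2 fold change -7.19 ± 0.49, adjusted p = 2e-09).

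For export and systemic control, 9 of 12 genes were tested, and 3 to 5 were higher and 3 or 4 lower on each day. Of all genes, 33.1% to 38.9% were higher and 32.1% to 37.1% lower. The 2 ferroxidases that load exported iron onto transferrin stood on opposite sides of day 0 from day 4 on. Cp, ceruloplasmin, rose from 10.7 ± 3.88 to 119 ± 11.2 CPM on day 14 (log2 fold change 3.49 ± 0.32, adjusted p = 7.7e-08), and Heph, hephaestin, fell from 34.9 ± 3.72 to 6.51 ± 0.704 CPM on day 4 (log2 fold change -2.42 ± 0.20, adjusted p = 1.7e-08). On day 1 both were called lower, Cp at -1.16 ± 0.32 (log2, adjusted p = 0.0047) and Heph at -2.0 ± 0.20 (adjusted p = 2e-07), and the Cp value was -0.45 on log2(TPM + 1) (adjusted p = 0.14). Smad4, which relays bone morphogenetic protein signals, rose on day 1 (log2 fold change 0.93 ± 0.09, adjusted p = 1.1e-07). Hamp, which encodes hepcidin, did not pass the filter on low counts.

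Of 8 sensors and regulators tested, 3 or 4 were higher and 2 to 4 lower on each day. Aco1, the other hairpin-binding protein and an aconitase, fell from 649 ± 63.6 CPM to 145 ± 8.39 CPM on day 14 (log2 fold change -2.16 ± 0.13, adjusted p = 5e-10). Hif1a, a subunit of the hypoxia factor, rose on day 14 (log2 fold change 0.84 ± 0.09, adjusted p = 5.1e-07). Of 7 genes of iron chaperones and ferritin turnover tested, 2 or 3 were higher and 2 or 3 lower on each day. Pcbp1, which hands iron to ferritin, rose on day 1 from 344 ± 19.2 to 609 ± 12.9 CPM (log2 fold change 0.82 ± 0.07, adjusted p = 4.6e-08), the day on which Fth1 was highest. Glrx3 rose on day 2 (log2 fold change 0.53 ± 0.06, adjusted p = 9e-07). Apart from the Cp fall on day 1, each of the differences named for these other genes was called in the same direction in all 28 alternatives.

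**Figure D5:**
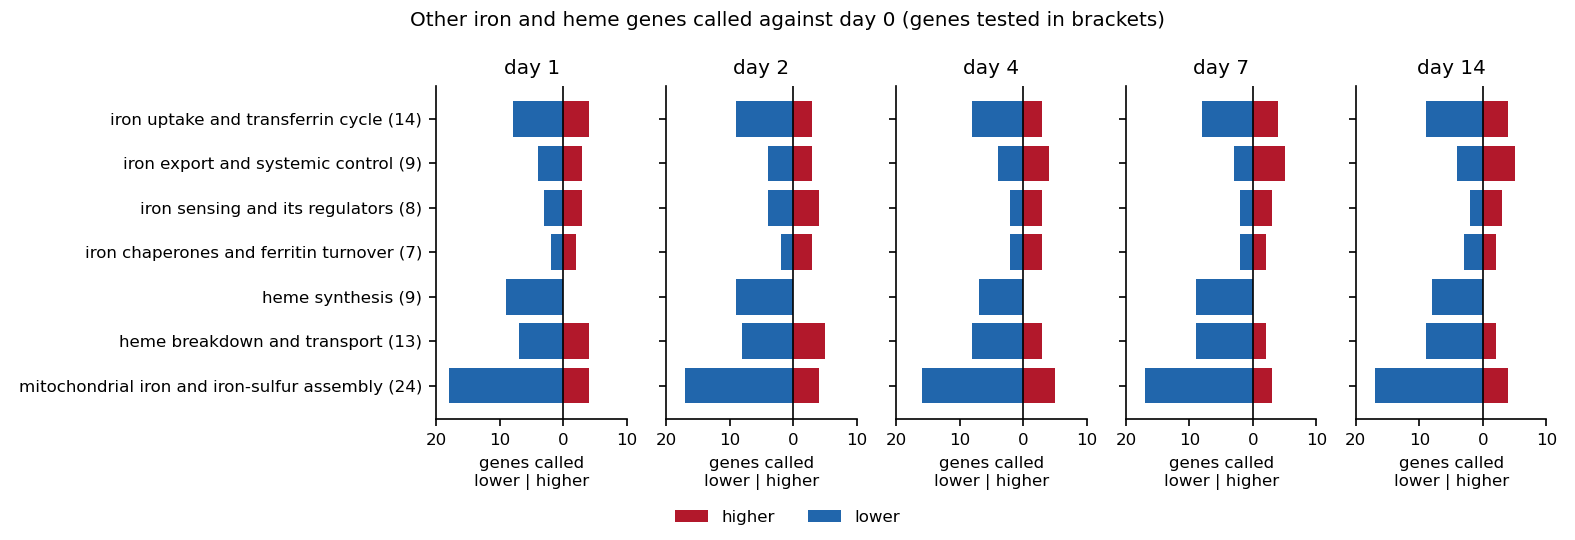
Number of genes called lower (bars to the left) and higher (bars to the right) than day 0 in each of 7 lists of other iron and heme genes, in 1 panel per day of culture, with the number of genes tested in brackets. Heme synthesis has bars to the left only, 7 to 9 of its 9 genes on each day, and mitochondrial iron and iron-sulfur assembly has 16 to 18 of 24 genes to the left.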

How the data were processed

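PolyA RNA-seq gave 18 libraries, 3 for each of 6 days. The authors deposited estimated (expected) counts per gene, as whole numbers, and TPM (transcripts-per-million), whose sums are equal so that depth is known only from the counts. The submitters' processing notes name RSEM 1.3.3, STAR 2.7.8a, cutadapt 2.3 and FastQC 0.11.8, with GRCm38 as the genome. For the annotation release, the strandedness and the role of each tool: not given in the sources used here. Of 55426 entries, 5 reporters with 0 counts were left out. Replicates of a day were not copies of one library, since their counts differed by a chi-square of at least 6.65 per degree of freedom.

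From the deposited expected counts, CPM were formed on TMM-scaled library sizes (edgeR 4.0.16, R 4.3.3). The log2 CPM used a prior count of 2. After filterByExpr, 18754 genes entered the quasi-likelihood F test of edgeR, fitted once over 18 libraries with a mean per day, with Benjamini-Hochberg adjustment over all genes and a threshold of 0.05. The SE is the absolute log2 fold change over the root of F. The replicate letters were not part of this model, and as an alternative they entered as a block over all 18 libraries. Only between days 2 and 4 did the deviations of all 3 same-lettered pairs correlate over 0.1 (r = 0.203, 0.160 and 0.293). Each fold change against day 0 shares the same day 0 libraries. The script was tested on simulated data. Ferritin shares and ratios were compared with two-sided exact permutation tests.

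Alternatives, 28 per gene and comparison, were DESeq2 1.42.0 (size factors, Wald test), library sizes alone, TMM without mitochondrially encoded genes, no count filter, the replicate block, only the libraries compared, limma 3.58.1 on log2(TPM + 1) (genes of mean TPM 0.5 or more, or unfiltered) and on log2(TPM + 0.1), and each library left out. Positions and hairpins came from GENCODE vM21 (GRCm38), in Python 3.11.15.

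The members and lists were chosen with earlier results of these data known. Named are all 9 members; per list of other iron genes and over the 5 comparisons with day 0, up to 2 genes with the lowest adjusted p among calls in the commoner direction and 1 among the rest, at 10 CPM or more in the higher day; and the 3 genes most correlated with each member. 1 gene that the rule would name is not reported here.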

Additional observations from a re-analysis of the deposited data

How the results depend on the processing

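No independent measure of total RNA per cell was used that could set the scale between libraries. Of 2268 alternative values for the members, 2085 kept their side of the threshold, 97 lost the call and 52 gained it. A further 34 turned sign with a call in the main fit, the alternative or both, all under library sizes alone or TPM. Values that changed sign with no call in either fit are among the 2085. Slc11a2 on day 4 against day 2, for example, ran from -0.12 to 0.05, with the opposite sign in 8 of 28 alternatives and a call in 0. With library sizes alone Ftl1 was 0.42 on day 2 and 0.0208 on day 7, Slc11a2 0.0208 on day 2, and Ireb2 0.0488 and 0.25 on days 7 and 14 (log2, against day 0). With limma on log2(TPM + 1), with or without the filter, Ftl1 was 0.49 on day 2 and 0.25 on day 7, Slc11a2 0.18 and 0.0655 on days 2 and 4, Slc40a1 0.24 on day 14, and Ireb2 0.0170, 0.0665, 0.27 and 0.50 on days 2, 4, 7 and 14. Tfrc on day 7 was 0.55 with the filter. With limma on log2(TPM + 0.1) Slc11a2 was 0.19 and 0.0670 on days 2 and 4, Tfrc 0.57 on day 7 and Ireb2 0.0183, 0.0701, 0.28 and 0.52 on days 2, 4, 7 and 14, with Ftl1 and Slc40a1 as above. With library sizes alone, members called higher numbered 5 and 4 on days 2 and 14, and members called lower 2, 1 and 2 on days 1, 2 and 4. Between days 1 and 2 it was 1 lower, and between days 7 and 14, 0 lower. Both filtered TPM fits called 5, 4 and 4 members higher on days 2, 7 and 14 and 2 on day 14 against day 7, and 2, 1, 1, 3 and 1 lower on days 1, 2, 4, 7 and 14, 1 on day 2 against day 1 and 0 on day 14 against day 7. The unfiltered TPM fit called 5, 3 and 4 members higher on days 2, 7 and 14 and 1 on day 14 against day 7, and 2, 1, 0, 3 and 1 lower on days 1, 2, 4, 7 and 14, 1 on day 2 against day 1 and 0 on day 14 against day 7. Other iron and heme genes called higher with library sizes alone were 32, 32 and 33 on days 4, 7 and 14, 15 on day 2 against day 1 and 12 on day 14 against day 7. With TPM and the filter they were 32, 34, 35, 15 and 13, and without it 35 and 37 on days 7 and 14, 31 on day 1, 13 on day 2 against day 1 and 13 on day 14 against day 7. Those called lower on day 14 were 31 with log2(TPM + 1), 30 with log2(TPM + 0.1) and 29 without the filter, and on day 2 against day 1 they were 20, 20 and 18. The cause of these changes was not tested beyond the shift of the scale itself. With counts over plain library totals, without TMM, in place of TPM, the ferritin share rose by 0.881, 0.599 and 0.239 percentage points on days 1, 2 and 4. On that measure it differed by -0.59 on day 7 against day 4. With only the libraries of the 2 days compared, which leaves fewer samples to estimate the spread, 3 members were higher on day 4 against day 2 and 0 higher and 0 lower on day 14 against day 7. In that fit the other iron and heme genes called higher were 9 on day 7 against day 4, with 1 higher and 1 lower on day 14 against day 7, and all genes called were 3609 and 219 in place of 7107 and 2348. On day 14 against day 7, DESeq2's size factors and no filter each left 0 members higher, and no filter left 4 other genes higher on day 2 against day 1. Leaving out mitochondrially encoded genes gave 2 members higher on day 4 against day 2.

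Outside days 2 and 4, same-lettered libraries did not deviate together in all 3 letters of any pair of days (over all days, 8 of 45 pairs had r over 0.1, from -0.172 to 0.424, and 12 of 18 libraries were closest to their own letter). The replicate block left 0 members lower on day 14 against day 7. Between days 2 and 4 it added the Ncoa4 call and changed no other call of a member. With 1 library left out in turn, members called higher ran from 2 to 5 on day 1, 1 to 2 on day 4 against day 2, 0 to 1 on day 7 against day 4 and 0 to 2 on day 14 against day 7, where members called lower ran from 0 to 1. Other iron and heme genes called higher ran from 4 to 10 on day 2 against day 1, 13 to 27 on day 7 against day 4 and 2 to 9 on day 14 against day 7, with 5 to 12 lower, and all genes called from 1214 to 2895. The extremes of 27 and 12 came without day 7 replicate C, and all genes called fell to 1351, 1273 and 1214 without day 14 replicates A, B and C. Every other count stayed within 1.5 times the one reported. Every other ferritin difference moved by less than the root of the summed variances of its 2 days. How depth limits the calls was not tested; the lowest member was Steap3, at 3.89 to 5.13 CPM on day 0.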
